A study of Mus musculus with 4 samples.

Results

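The genes described here are 10 genes of the colonic epithelium, Lypd8, Saa1, Car4, Aqp8, Muc3, Car1, Lgals4, Krt8, Epcam and Pigr, as measured in 4 populations of myeloid cells. All probe sets that name exactly 1 of these genes were taken, which gave 15 of the 20380 probe sets that name a single gene, and 10 of 12393 genes. The cells came from the connective tissue under the epithelium (the lamina propria) of the large intestine, in mice of the strain C57BL/6J. The CX3CR1high macrophages were positive for CD11c and CD11b and high for the chemokine receptor CX3CR1, and the CX3CR1- cells were positive for CD11c and CD11b and lacked CX3CR1. The CD11b+ cells lacked CD11c, and the CD11chigh dendritic cells (DCs) were high for CD11c and lacked CD11b. No allele, treatment or age is named in the labels, and the sources used here do not say whether cells of several mice were pooled. Each population had 1 Affymetrix 3' array, without replicates, so nothing here is tested and the precision of every value is limited by the number of arrays. The 10 genes were chosen by their high signals in the CX3CR1high array relative to the other arrays, and those ratios are a description.

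The epithelium of the colon is a single sheet of cells between the gut contents and the lamina propria. Stem cells at the base of the crypts give rise to absorptive colonocytes, mucus-making goblet cells, hormone-making enteroendocrine cells and chemosensory tuft cells. Colonocytes mature as they move to the surface, where they take up water and salt and carry out part of the defence against bacteria. Macrophages of the lamina propria lie directly under this sheet and take up dying cells and bacteria.

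Signals are linear intensities, scaled by the authors to a common trimmed mean on each array. Signals below 103, the pooled median of the 4 arrays, were raised to that value, called the floor. Where this happened on 1 side of a ratio, the text gives it as "at least" so many fold, and where it happened on both sides no ratio is given. Counts and medians take a bound at its value, so a gene with a bound under 4-fold may differ by more. Median signals ran from 88.5 to 110.2 over the arrays. The 3' to 5' signal ratio of the Gapdh control, a measure of RNA breakdown, ran from 0.791 to 3.40 and was 1.08 in the CX3CR1high array. That of the Actb control ran from 1.11 to 3.18 and was 1.68 in the CX3CR1high array. As a yardstick, log2 ratios of probe sets that measure one gene were compared within each pair of arrays, which gave an SD of 0.31 to 0.52. This yardstick leaves out any variation between mice or collections. The label was checked against 15 tissue macrophage markers, all 15 of which reached the floor in the CX3CR1high array and in the CD11b+ array, 14 in the CX3CR1- array and 11 in the DCs, so reaching the floor does not set the CX3CR1high array apart. In the CX3CR1high array Adgre1 stood at 8502 and Csf1r at 32267.

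All 10 genes had their highest signal in the CX3CR1high array. Among the 7847 genes that reached the floor in any array, 25.9% were highest there. The CX3CR1- array came second for 9 of the 10 genes, an arrangement found in 6.37% of all these genes. For 7 genes the full order was CX3CR1high array, CX3CR1- array, DCs and CD11b+ array, which 2.19% of all genes shared. Both shares include the high CX3CR1high signal for which the 10 genes were picked. Of the 2032 genes highest in that array, 500 had the CX3CR1- array second and 172 had the full order. For Saa1 and Aqp8 the order of the other arrays rests on signals under the floor. The lead of the CX3CR1high array over the next array was larger than 1 SD between probe sets for 10 of 10 genes. The genes were picked for high signals in that array, so nothing is read from this count. With equal medians Epcam fell short, with a log2 ratio of 0.27 over the DCs against an SD of 0.39. Below that lead the order is less firm. With quantile normalization or equal medians, the CX3CR1- array came second for 8 genes and the full order held for 8, without Saa1 and with Car4 and Aqp8, whose signals in the lower arrays lie mostly under the floor. Of the 20 neighbouring pairs among the other arrays, 8 were more than 1 SD apart, 6 were within 1 SD, 1 had only a lower bound below 1 SD, and 5 had both signals under the floor. In bulk RNA, fewer cells of a type and less RNA per cell cannot be told apart.

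**Figure D1:**
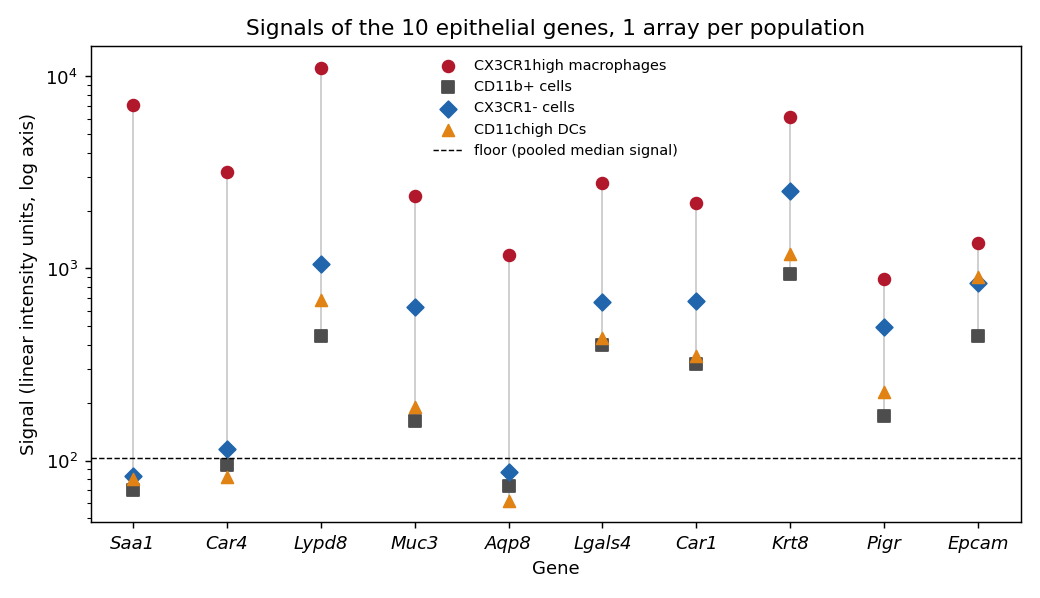
Signal of each of the 10 genes (x axis, ordered by the ratio of CX3CR1high array over CD11b+ array) on a log axis of linear intensity units, with 1 point per population and array and a dashed line at the floor of 103. The CX3CR1high point is the highest for all 10 genes, from 882 for Pigr to 11122 for Lypd8, and for Saa1 and Aqp8 the other 3 points lie under the floor.

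The promoters of the 3 genes with the largest ratios over the CD11b+ array, Saa1, Car4 and Lypd8, and of Epcam, which had the smallest, are shown so that the DNA beside the most and the least separated signals can be read. They are the 250 bases before the transcript start in RefSeq, build GRCm38.p6, 5' to 3' on the gene's strand. Saa1 lies on the minus strand at chr7:46742981-46743230, Car4 on the plus strand at chr11:84957504-84957753, Lypd8 on the plus strand at chr11:58378782-58379031 and Epcam on the plus strand at chr17:87635729-87635978. Capitals mark matches to the letters TTTATG (CDX2, a factor of the intestinal epithelium), TTGCNNAA (C/EBP, factors of the acute-phase response), CAAAGT (a short form for HNF4A), GTTAAT (a short form for HNF1) and GGGANNTTC (a short form for NF-kB), searched on both strands.

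Saa1: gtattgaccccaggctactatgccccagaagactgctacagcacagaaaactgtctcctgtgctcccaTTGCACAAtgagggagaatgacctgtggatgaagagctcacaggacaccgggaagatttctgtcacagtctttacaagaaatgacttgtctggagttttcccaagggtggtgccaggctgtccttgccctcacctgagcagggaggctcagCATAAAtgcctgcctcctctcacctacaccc

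Car4: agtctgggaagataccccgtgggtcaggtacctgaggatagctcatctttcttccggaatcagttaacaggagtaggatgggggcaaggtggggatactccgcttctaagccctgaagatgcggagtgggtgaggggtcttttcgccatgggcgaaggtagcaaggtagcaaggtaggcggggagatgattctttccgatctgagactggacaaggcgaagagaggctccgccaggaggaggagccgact

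Lypd8: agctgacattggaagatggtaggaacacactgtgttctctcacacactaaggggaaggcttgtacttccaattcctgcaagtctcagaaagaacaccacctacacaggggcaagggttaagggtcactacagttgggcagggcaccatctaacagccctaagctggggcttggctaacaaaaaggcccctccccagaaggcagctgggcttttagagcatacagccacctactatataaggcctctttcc

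Epcam: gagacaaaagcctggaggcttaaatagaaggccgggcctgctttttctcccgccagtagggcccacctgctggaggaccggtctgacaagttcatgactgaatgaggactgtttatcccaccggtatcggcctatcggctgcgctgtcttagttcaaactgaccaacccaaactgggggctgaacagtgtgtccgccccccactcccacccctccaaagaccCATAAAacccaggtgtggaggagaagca

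A RefSeq promoter was found for 9 of the 10 genes, with 2 start sites for Lypd8. The Saa1 promoter holds a C/EBP match that begins 182 bases before the start, and 9.56% of all 32851 promoters hold one. CDX2 matches begin 31 bases before the start of Saa1 and 28 before that of Epcam, and 10.8% of all promoters hold that motif. The other Lypd8 start, on the plus strand at chr11:58380396-58380645, has a match to the HNF1 letters (6.43% of all promoters), and Aqp8 has a match to the NF-kB letters (3.23%). No promoter of the 9 genes holds CAAAGT (12.6% of all) or the longer HNF4A form CAAAGTCCA, which contains it (0.384%). The KLF letters CACCC, not marked above, are in the promoters of 6 of the 9 genes and in 52.0% of all. None of these motifs was common to the 9 genes, and a match in these windows is not evidence of binding.

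The first group of genes serves defence and antibody transport. Lypd8 is a glycoprotein of the colonic surface that binds flagellated bacteria and keeps them from the epithelium. Its signal was 11122 in the CX3CR1high array, 1058 in the CX3CR1- array, 685 in the DCs and 444 in the CD11b+ array. All 4 arrays were above the floor, and the CX3CR1high array stood 25.02-fold over the CD11b+ array, 16.2-fold over the DCs and 10.5-fold over the CX3CR1- array. Saa1 encodes serum amyloid A, an acute-phase protein that the liver and the gut epithelium make. Its signal was 7125 in the CX3CR1high array, 83.2 in the CX3CR1- array, 79.9 in the DCs and 70.2 in the CD11b+ array. Only the CX3CR1high array reached the floor, and the ratio was at least 69.3-fold over each of the others. A further probe set named Saa1 gave 3813, 53.4, 58.5 and 25.2 in the same order, but its RefSeq accession is that of the near-identical gene Saa2, so its signal may come from either gene. A probe set named Saa2 had 299 in the CX3CR1high array and was under the floor in the others, at least 2.91-fold. Pigr carries polymeric immunoglobulin A through epithelial cells to the gut lumen. Its signal was 882 in the CX3CR1high array, 497 in the CX3CR1- array, 228 in the DCs and 172 in the CD11b+ array. The ratio was 5.14-fold over the CD11b+ array and 3.87-fold over the DCs, but only 1.78-fold over the CX3CR1- array, and the other Pigr probe set gave at least 4.19-fold, 3.66-fold and 1.63-fold.

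The second group moves ions and water. Car4 is the membrane-anchored carbonic anhydrase of the colonocyte brush border, and Car1 is a carbonic anhydrase of the cytosol. The Car4 signal was 3179.8 in the CX3CR1high array, 114 in the CX3CR1- array, 94.8 in the CD11b+ array and 82.3 in the DCs. The CX3CR1- signal lay just over the floor and gave a ratio of 27.8-fold, and both others were under it, at least 30.9-fold. A second Car4 probe set had 2906 in the CX3CR1high array and all 3 others under the floor, at least 28.3-fold. The Car1 signal was 2200.5 in the CX3CR1high array, 681 in the CX3CR1- array, 349 in the DCs and 317 in the CD11b+ array. All 4 arrays were over the floor here, with ratios of 6.94-fold over the CD11b+ array, 6.30-fold over the DCs and 3.23-fold over the CX3CR1- array. Aqp8 is a water channel of surface colonocytes. Its signal was 1180.4 in the CX3CR1high array, 87.0 in the CX3CR1- array, 73.9 in the CD11b+ array and 61.9 in the DCs. As for Saa1, only the CX3CR1high array was above the floor, at least 11.5-fold over each of the others.

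The third group forms the cell surface, the cytoskeleton and the contacts between cells. Muc3 is a mucin that stays anchored in the apical membrane. Its signal was 2373 in the CX3CR1high array, 633 in the CX3CR1- array, 190.3 in the DCs and 162 in the CD11b+ array. The CX3CR1- array stood apart from both lower arrays, 3.32-fold over the DCs and 3.92-fold over the CD11b+ array. The ratio of the CX3CR1high array was 14.7-fold over the CD11b+ array, 12.5-fold over the DCs and 3.75-fold over the CX3CR1- array. Lgals4 is galectin-4, a sugar-binding protein of the gut epithelium. Its signal was 2790.4 in the CX3CR1high array, 668 in the CX3CR1- array, 435 in the DCs and 397 in the CD11b+ array, and the ratios were 7.02-fold over the CD11b+ array, 6.42-fold over the DCs and 4.18-fold over the CX3CR1- array. The DCs and the CD11b+ array differed by 1.09-fold, less than 1 SD between probe sets (1.38-fold for this pair).

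Krt8 is a keratin filament protein of simple epithelia. Its signal was 6182 in the CX3CR1high array, 2530.4 in the CX3CR1- array, 1192 in the DCs and 932 in the CD11b+ array. The ratios were 6.63-fold over the CD11b+ array, 5.18-fold over the DCs and 2.44-fold over the CX3CR1- array. Over its 3 probe sets these ran from 6.27-fold to 6.71-fold, from 4.97-fold to 7.37-fold and from 2.26-fold to 2.56-fold, and their types (_a_at and _x_at) can match several transcripts, as can the only Epcam set. Epcam is an adhesion molecule of epithelial cells, which some DCs are also known to carry. Its signal was 1357 in the CX3CR1high array, 908 in the DCs, 839 in the CX3CR1- array and 443 in the CD11b+ array. It was the only one of the 10 genes for which the DCs came second, and they differed from the CX3CR1- array by 1.08-fold, less than 1 SD. The CX3CR1high array was 3.06-fold over the CD11b+ array, 1.62-fold over the CX3CR1- array and 1.49-fold over the DCs.

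**Figure D2:**
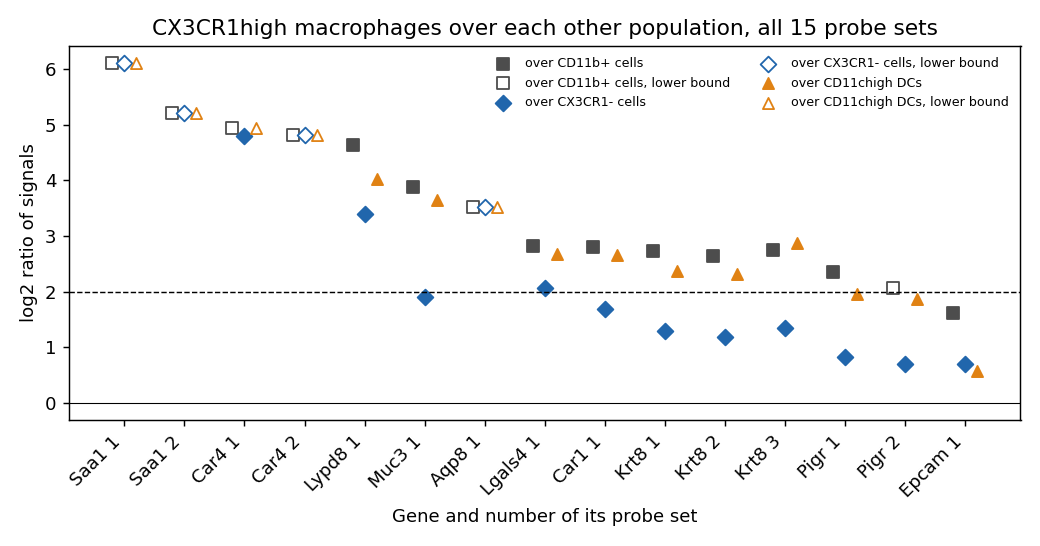
log2 ratio of the CX3CR1high signal over each other population for all 15 probe sets of the 10 genes (x axis), with open symbols for lower bounds, a solid line at 0 and a dashed line at 4-fold. All 15 probe sets lie above 0 in all 3 comparisons, and 14 reach the dashed line over the CD11b+ array, 12 over the DCs and 7 over the CX3CR1- array. Among all genes, each read from 1 probe set, 0.865%, 6.06% and 1.38% did. The 15 probe sets measure only 10 genes, which were picked for high signals in this array, so nothing is read from these counts.

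The members differed in how far they fell from the CX3CR1high array to the others. For these shares the signals were used as deposited, without raising them to the floor. Taking each gene's CX3CR1high signal as 100%, the CX3CR1- signal ran from 1.17% (Saa1) to 61.9% (Epcam), with a median of 25.3%. In the DCs the range was 1.12% (Saa1) to 67.0% (Epcam) with a median of 11.8%, and in the CD11b+ array 0.986% (Saa1) to 32.7% (Epcam) with a median of 10.5%. In the CX3CR1- array Lypd8 stood at 9.51% and Aqp8 at 7.37% of the CX3CR1high signal, against 40.9% for Krt8 and 56.3% for Pigr. Signals under the floor carry little information, which touches the shares of Saa1, Aqp8 and Car4. With signals raised to the floor, the share in each other array is at most 1.44% for Saa1 and at most 8.71% for Aqp8.

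At 4-fold or more, 9 of the 10 genes were higher in the CX3CR1high array than in the CD11b+ array, where 0.865% of 7512 genes with a ratio were. The exception was Epcam. Their median log2 ratio was 3.17, and that of all genes was -0.02. Over the DCs the count was 8 of 10, against 6.06% of 7480 genes, with a median of 3.10 against 0.02, and Pigr and Epcam fell short. Over the CX3CR1- array it was 5 of 10, against 1.38% of 7462 genes, with a median of 1.99 against 0.02. These 5 genes, Saa1, Car4, Aqp8, Lypd8 and Lgals4, were at least 4-fold over all 3 other arrays, as were 0.446% of the 7847 genes. Lgals4 was the closest to the limit, and with equal medians 4 of the 10 genes reached it over the CX3CR1- array. The 3 comparisons share the CX3CR1high array and are not independent. Because the genes were picked for these values, nothing is read from the counts. Ranked among all ratios, the 10 genes lay between 1 (Saa1) and 118 (Epcam) over the CD11b+ array, between 1 (Saa1) and 1156 (Epcam) over the CX3CR1- array, and between 9 (Saa1) and 1977 (Epcam) over the DCs, where ranks of bounds depend on the floor.

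**Figure D3:**
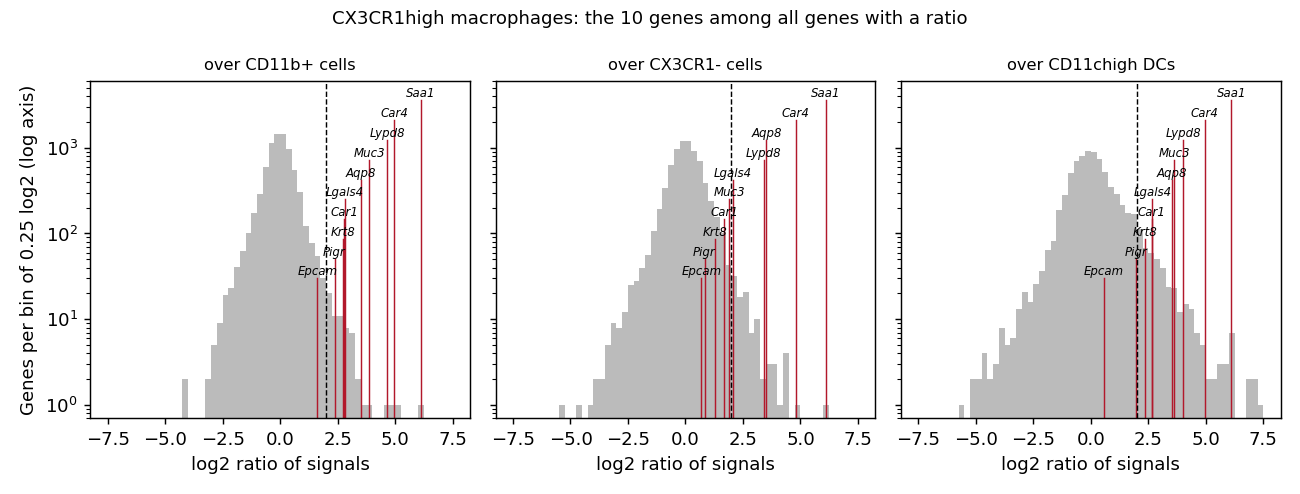
Number of genes (log axis) per bin of log2 ratio of the CX3CR1high signal over each other population, in grey, with red lines at the 10 genes, whose heights only separate the names, and a dashed line at 4-fold. The 10 genes lie to the right of 0 in all 3 panels, closest to the bulk of genes over the CX3CR1- array, where 5 reach the dashed line.

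Other genes of the epithelium were taken from 8 lists of 134 genes, of which 113 were on the array. Without the 10 members, 103 were, and 44 of these were under the floor in all 4 arrays. Of the others that had a ratio, 14 of 57 stood 4-fold or more over the CD11b+ array and 0 at least 4-fold lower. Their median log2 ratio was 0.92 against -0.02 for all genes. Over the CX3CR1- array 7 of 54 were higher and 0 lower (median 0.65 against 0.02), and over the DCs 14 of 50 and 0 (median 1.19 against 0.02). These counts depend on the floor, as do the shares of all genes. With the floor at the 75th percentile the counts were 1, 0 and 1, against 0.544%, 1.16% and 4.23% of all genes. With no floor they were 31, 14 and 33, against 4.89%, 4.97% and 11%. Without probe sets of types that can match several transcripts they were 10, 3 and 8, against 0.823%, 1.34% and 6.1%. At the floor of 103, 0.865%, 1.38% and 6.06% of all genes were at least 4-fold higher. Over all genes, 0.799%, 1.26% and 1.95% were at least 4-fold lower in these 3 comparisons, and 0 of the 10 members was. Of these 103 genes 24 reached the floor in all 4 arrays. The summed signal of the 103 genes was 33266 in the CX3CR1high array, 18532 in the CX3CR1- array, 15075 in the DCs and 13422 in the CD11b+ array. With the 10 members, which were chosen for high signals in the first, it was 71657, 25723, 19287 and 16528. The lists were written with earlier results of these arrays known, so their direction is not independent evidence.

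Genes of absorptive colonocytes other than the members had a median log2 ratio of 1.51 over the CD11b+ array, 1.05 over the CX3CR1- array and 2.12 over the DCs. Of these genes, 5 of 12 that had a ratio were at least 4-fold higher over the CD11b+ array, 4 of 13 over the CX3CR1- array and 6 of 12 over the DCs, against 0.865%, 1.38% and 6.06% of all genes. Outside the members, Phgr1 had 1161 in the CX3CR1high array, 229 in the CX3CR1- array, 122 in the DCs and 112 in the CD11b+ array, a ratio of 10.3-fold over the CD11b+ array. Slc26a3, the chloride and bicarbonate exchanger of the colon, had 660.3 and was under the floor in the others, at least 6.42-fold. Krt20, a keratin of surface cells, had 569.8 and was likewise under the floor elsewhere, at least 5.54-fold. Guca2a, which encodes the peptide guanylin, was 6.65-fold over the CD11b+ array (1639 against 247). Genes of this list were not all separated: Hsd11b2, the enzyme that inactivates glucocorticoids, was at 199.8 against 202, and the sodium channel subunit Scnn1a at 162 in the CX3CR1high array and 169 in the CX3CR1- array. Below the floor in all 4 arrays were 6 genes of the list, among them Guca2b and Scnn1b.

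Genes of cell contacts and keratins, leaving out the members Krt8, Lgals4 and Epcam, had a median log2 ratio of 1.62 over the CD11b+ array. It was 0.90 over the CX3CR1- array and 1.13 over the DCs. Of these, 8 of 19 genes were at least 4-fold higher over the CD11b+ array, 3 of 19 over the CX3CR1- array and 7 of 19 over the DCs, against 0.865%, 1.38% and 6.06% of all genes. The tetraspanin Tspan1 was 8.31-fold over the CD11b+ array (865 against 104) and the tight-junction claudin Cldn3 6.97-fold (760.0 against 109). Krt18 and Krt19, keratins found with Krt8, were 3.08-fold and 4.99-fold over the CD11b+ array, and 1.596-fold and 1.92-fold over the CX3CR1- array. Cdh1, which encodes E-cadherin, was an exception to that order, 4.47-fold over the CD11b+ array (640.0 against 143) and 1.25-fold lower than in the CX3CR1- array. Spint1, a protease inhibitor, was highest in the DCs at 3612, against 1203 in the CX3CR1high array. Of the transcription and splicing factors, 0 of 6 genes had a ratio or bound of 4-fold or more in any of the 3 comparisons. Among so few genes this is near the share over all genes. At 2-fold the counts over the CD11b+ array, the CX3CR1- array and the DCs were 2, 3 and 3 of 6. Over all genes the shares were 4.66%, 8.56% and 17.4%. The median log2 ratios of the list were 0.94, 0.66 and 1.34. Elf3 stood at least 3.94-fold over the CD11b+ array with a signal of 406, Hnf4a at least 3.23-fold (332) and Ehf at least 1.99-fold (204). The signals of these genes were under 4 times the floor, so a 4-fold ratio was out of reach for them. Cdx2, a regulator of intestinal identity, lay at the floor with 104.

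Of the goblet cell genes, 3 of 10 were at least 2-fold higher over the CD11b+ array, 2 of 10 over the CX3CR1- array and 5 of 8 over the DCs, against 4.66%, 8.56% and 17.4% of all genes. At 4-fold the list had 0 in each comparison, near the share over all genes, and its median log2 ratios were 0.48, 0.25 and 1.23. The 3 genes over the CD11b+ array were Zg16 (3.42-fold, 961 against 281), the trefoil peptide Tff3 (2.78-fold, 456 against 164) and Fcgbp (2.13-fold, 259 against 121). Of the 10 crypt base and stem cell genes on the array 8 were under the floor in all 4 arrays, among them Lgr5 and Ascl2, and the remaining pair, Axin2 and Ephb3, reached it only in the CD11b+ array. Of the 12 enteroendocrine genes 10 were under the floor in all arrays, among them Chga, and Tac1 (140.2) was the only one to reach it in the CX3CR1high array. Of 6 tuft cell genes 0 reached it there. Low abundance and the lack of a transcript cannot be told apart under the floor.

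Of the defence list without its members Saa1, Lypd8 and Pigr, 1 of 5 genes was at least 4-fold higher over the CD11b+ array, 0 of 4 over the CX3CR1- array and 1 of 4 over the DCs. In the first count this was Dmbt1, a scavenger protein that binds bacteria, with 1837 in the CX3CR1high array, 474 in the CX3CR1- array, 199 in the CD11b+ array and 144 in the DCs. Over all genes 0.865%, 1.38% and 6.06% were at least 4-fold higher, and among so few genes nothing is read from the counts. Lcn2, a protein that captures bacterial iron carriers and is also made by neutrophils, reached the floor only in the CD11b+ array (310.0). Reg3b lay near the floor in all arrays (76.4 to 128) and Reg3g under it. Genes of the small intestine and its Paneth cells had 9 of 13 members under the floor in all arrays, among them Fabp1, Apoa1 and Apoa4. In that list 0 of 4 genes had a ratio or bound of 4-fold or more in any comparison, which among so few genes is near the share over all genes.

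**Figure D4:**
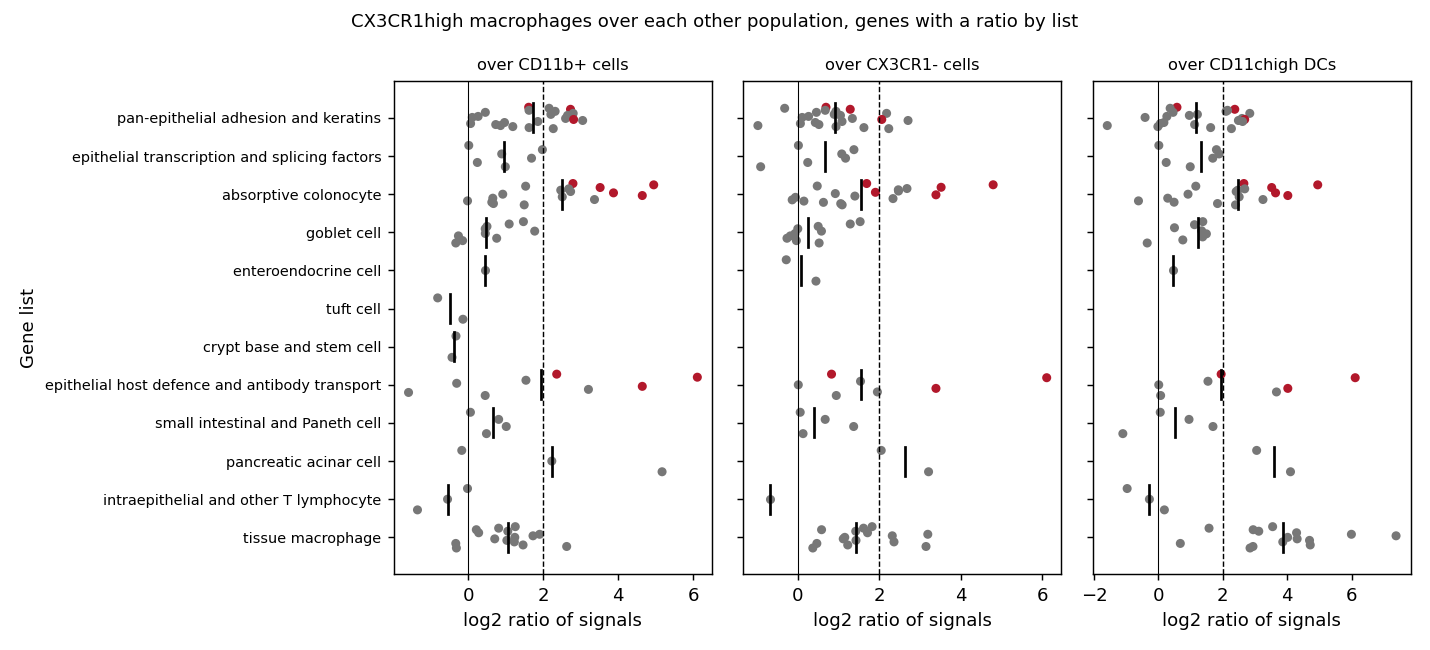
log2 ratio of the CX3CR1high signal over each other population for genes of 12 lists that had a ratio, 1 point per gene, with the 10 genes in red, a bar at each list's median and a dashed line at 4-fold. The bars include the 10 genes, which raise 3 of them over the CD11b+ array: the absorptive colonocyte median is 2.51 with and 1.51 without them, the defence median 1.95 and 0.45, and the adhesion and keratin median 1.74 and 1.62.

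The genes whose pattern was most like that of the 10 were found by the distance of their log2 signals, raised to the floor and centred over the 4 arrays, from the mean of the 10 genes' centred signals. The root mean square distance was taken over 4 arrays and 7847 genes, and the 10 genes themselves lay at 0.28 (Lgals4) to 1.33 (Saa1). The 15 nearest genes outside the set were Phgr1 (0.12), Fxyd4 (0.21), Cldn3 (0.26), Tmem45b (0.29), Myo15b (0.29), Ckmt1 (0.31), Tspan1 (0.35), Guca2a (0.38), Slc26a3 (0.38), Atp12a (0.40), Dmbt1 (0.40), Krt20 (0.44), Muc13 (0.46), Cyp2c55 (0.47) and Dsp (0.47). Of these, 9 are in the epithelial lists, to which 59 genes other than the 10 belong among the 7847. The search used the values for which the 10 genes were picked, and the lists were written with earlier results known. This count is therefore not independent evidence. Among the other 6 of the 15 nearest genes, Atp12a encodes a proton and potassium pump, Muc13 a membrane-bound mucin and Fxyd4 a regulator of the sodium pump. Atp12a had a signal of 624 in the CX3CR1high array and 18.9 to 50.6 elsewhere.

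Markers of further cells were set beside these genes. In the list of T lymphocytes, which also live inside the epithelium, 1 of 11 genes reached the floor in the CX3CR1high array, which was Thy1 at 124. The count was 3 in the CD11b+ array, 1 in the CX3CR1- array and 3 in the DCs. The CD3 subunit genes Cd3e, Cd3g and Cd3d were under the floor in all 4 arrays. Genes of fibroblasts, muscle and endothelium did not follow the epithelial order. Their summed signal was 64953 in the CD11b+ array, 23814 in the CX3CR1- array, 23110 in the CX3CR1high array and 5654 in the DCs. Tissue macrophage genes were also high in the CX3CR1high array, with 1 of 15 genes at least 4-fold over the CD11b+ array, 4 over the CX3CR1- array and 13 over the DCs. Over all genes these shares were 0.865%, 1.38% and 6.06%. Of the plasma cell genes, 0 of 5 were at least 4-fold higher over the CD11b+ array, 0 of 5 over the CX3CR1- array and 1 of 5 over the DCs. Among so few genes these counts are near the shares over all genes. Of the conventional DC genes 0 were at least 4-fold higher in any comparison, which among so few genes is near the shares over all genes. At least 4-fold lower were 5 of 8 than in the CX3CR1- array and 7 of 9 than in the DCs, against 1.26% and 1.95% of all genes. The Gapdh control ratio was 1.08 in the CX3CR1high array, 2.17 in the CD11b+ array, 3.40 in the CX3CR1- array and 0.791 in the DCs. The Actb control ratio was 1.68, 3.18, 2.76 and 1.11 in the same order, so the controls differed in which array was highest. The part of RNA quality and of epithelial cells or their RNA in the collected CX3CR1high population was not tested.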

How the data were processed

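RNA of 4 cell populations was measured on Affymetrix 3' arrays, 1 per population, labelled by biotin per the labels' protocols. Per the submitters' processing notes the authors used MAS5 to make the deposited intensity values, which are linear; version and genome build are not given in the sources used here. The trimmed mean (2% off each end) was 500 on every array, and no further normalization was done. Of 22690 probe sets, 64 were controls and 20380 named 1 gene. Each of 12393 genes was read from its brightest probe set by mean log2 signal, with sets ending in _x_at last. All 10 members matched RefSeq by Entrez number. Calls are ratios of 4-fold or more over a floor at the pooled median. Named genes are the members, the 3 genes of a list with the largest ratios over the CD11b+ cells, counts of 5 or fewer and the 15 nearest profiles. Other genes (Hsd11b2, Scnn1a, Cdh1, Spint1, Krt18, Krt19, Cdx2, Saa2, Adgre1, Csf1r, Ccl8, Folr2, Lcn2, Reg3b, Atp12a and those under the floor) were chosen after their values were seen. Members and lists were chosen with earlier results of these data known. Sequences are RefSeq's (GRCm38.p6). Python 3.11.15, numpy 2.4.6, pandas 2.3.3 and matplotlib 3.10.9 were used, the ratio and call steps were tested on simulated data, and 8 alternatives were tried.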

Additional observations from a re-analysis of the deposited data

How the results depend on the processing

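Under the 8 alternatives, all 234 recomputed log2 ratios of the 10 genes stayed above 0, and 211 moved by less than the SD between probe sets. A changed floor or a pseudocount cannot reverse a ratio, and the genes were picked as high in this array. The signs were therefore largely fixed in advance. The count of the 10 genes at 4-fold or more stayed within 1.5 times its value under each alternative. It fell most when the floor was raised to the 75th percentile: 7 over the CD11b+ cells, 4 over the CX3CR1- cells and 7 over the DCs. With that floor 0.544%, 1.16% and 4.23% of all genes were called. Without probe sets of shared types Krt8 and Epcam had no value, which leaves 8 genes. Of these, 8, 5 and 7 were called, against 0.823%, 1.34% and 6.1% of all genes. The counts over the 8 epithelial lists, members included, were 23 of 67, 12 of 64 and 22 of 60 genes with a ratio. At that floor of 103, 0.865%, 1.38% and 6.06% of all genes were called. The list counts depended on the floor. With the raised floor they were 8, 4 and 8. With no floor they were 40, 19 and 41, and 4.89%, 4.97% and 11% of all genes were then called. With equal medians the median log2 ratio of all genes moved to -0.02 over the CD11b+ cells, -0.06 over the CX3CR1- cells and -0.27 over the DCs. Signals under the floor limit the ratios of Saa1 and Aqp8, which are bounds in all 3 comparisons, and those of Car4 over the CD11b+ cells and the DCs. No paired analysis was possible because each population has 1 array.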

Other observations

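A pair of genes from the pancreatic acinar list had high signals in the CX3CR1high macrophages. Sycn, which encodes syncollin, a protein of secretory granules, stood at 3711 there, 400.4 in the CX3CR1- cells, 216 in the DCs and 92.9 in the CD11b+ cells, at least 36.1-fold over the last. Cela1, a protease of the elastase family, stood at 949.7, 229, 114 and 202 in the same order. Of the 12 genes of that list on the array, 9 were under the floor in all 4 arrays, among them Cpa1, Cel and Prss2.

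In all, 35 of 7847 genes (0.446%) were at least 4-fold higher in the CX3CR1high macrophages than in each other population. The 10 genes described above gave 5 of them. The 59 other genes of the epithelial lists that reached the floor gave 7 more, which were Slc26a3, Tspan1, Krt20, Guca2a, Phgr1, Cdhr5 and Cldn3. The 10 genes were picked for these values and the lists were written with earlier results known, so nothing is read from these counts. The tissue macrophage list gave 1, Hpgds. Of the rest, 20 were in no list, among them the chemokine Ccl8 (19869 against 895 in the CX3CR1- cells) and the folate receptor Folr2 (7079 against 364). The 20 also hold Myo15b, Fxyd4, Atp12a, Tmem45b and Muc13, which are among the 15 genes nearest to the 10 in pattern.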
